A study of Mus musculus with 12 samples.

Results

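A set of genes of the Wnt and beta-catenin pathway were followed from mouse embryonic stem cells (ESCs) to epiblast-like cells (EpiLCs). They are the receptor Fzd7, the destruction complex genes Axin1, Axin2, Apc and Gsk3b, beta-catenin itself (Ctnnb1), the DNA-binding partners Tcf7l1, Tcf7 and Lef1, and the target transcription factor Sp5. These 10 genes were taken by symbol from the 22462 genes of the deposited count table. The rule uses symbols and no measured value, although the list was drawn up with earlier results of these data known.

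A Wnt ligand binds a Frizzled receptor and thereby stops a cytoplasmic destruction complex, in which Axin and APC proteins hold beta-catenin so that the kinase GSK3 can mark it for removal. Beta-catenin that escapes enters the nucleus and joins TCF/LEF factors on DNA. In ESCs the pathway is known for sustaining the naive state, in large part by lifting repression that Tcf7l1 exerts on naive genes. Axin2, Sp5, Lef1 and Tcf7 are themselves classical targets of beta-catenin.

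The ESCs grew in Knockout DMEM with serum, LIF and 2i, which is a pair of small molecules: CHIR99021, an inhibitor of GSK3, and a MEK inhibitor. EpiLCs were the same kind of ESCs collected about 56 hours after LIF and 2i had been withdrawn, 24 hours after plating. The study's methods name a single reporter ESC line, carrying fluorescent markers for the miR-290 and miR-302 loci, for this transition. Ribosome protected footprints (RPFs), the mRNA pieces that ribosomes shield from nuclease, and matched total RNA were each sequenced in 3 libraries per cell type, giving 12 libraries in 4 groups. The 4 groups are thus both assays in each of the cell types, and LIF, CHIR99021 and the MEK inhibitor were withdrawn together, so their parts cannot be told apart. The study calls the replicates biological, but neither it nor the labels say that they were separate cultures, so p-values measure the spread between these libraries. As these are bulk samples, fewer cells of one kind and less RNA per cell cannot be told apart either.

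Library totals ran from 2681439 counts in EpiLC RPF to 14655015 in EpiLC total RNA, and 3 counts, taken as the detection floor, correspond to 0.205 to 1.12 CPM (a gene's counts scaled to a library total of 1000000). These floors cover counting error only. Markers of the states moved as the labels name them: the summed level of the naive markers Zfp42, Esrrb and Klf4 was 856 to 939 CPM in ESC and 35.5 to 60.3 CPM in EpiLC total RNA, and that of Dnmt3b, Otx2 and Fgf5 was 104 to 193 and 1080 to 1171 CPM. Within ESC total RNA, replicate 2 held the most of the latter markers (193 CPM against 104 and 135). Within EpiLCs, replicate 1 kept the most naive RNA in both assays (60.3 CPM against 35.5 and 52.6 in total RNA, 111 against 59.3 and 53.8 in RPF). Changes of the 10 genes without these 3 libraries are given beside those with all 12. Among lists of 5 markers each for other cell types, 2 of each list were tested. Summed neural markers were at 9.90 to 14.5 CPM in ESC and 20.04 to 22.6 CPM in EpiLC total RNA, where Pax6 rose and Sox1 was not called. Primitive streak markers were at 9.90 to 11.7 and 5.01 to 7.98 CPM, and Eomes and Gsc fell. The others of that list were below the filter and did not all fall. T had 12 total RNA counts in ESCs and 63 in EpiLCs, Mixl1 8 and 34, and Mesp1 3 and 1. Trophoblast markers were at 44.7 to 53.8 and 10.5 to 15.6 CPM, a sum led by Tfap2c, which fell from 47.7 to 4.77 CPM on average, while Krt7 rose from 1.497 to 6.83 CPM and Cdx2 and Elf5 had 1 and 0 counts over the 6 libraries. Fibroblast markers were at 1.98 to 2.26 and 8.98 to 12.1 CPM, with Col1a1 and Thy1 higher and Postn at 0 counts. Primitive endoderm markers were at 3.74 to 4.90 and 4.91 to 5.60 CPM, and 0 of the 2 tested were called. Pax6 and Krt7 reached 3 CPM in no ESC library, Col1a1 in 1 and Thy1 in 2, and Gsc reached it in no EpiLC library. The filter, given below, asks for 3 libraries, so these genes passed it only with the libraries where they are higher. They could hardly be tested without the change they show. The part of such cells in the results was not tested.

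The first question was which of the 10 genes change in mRNA, in footprints and in translational efficiency (TE, footprints relative to mRNA). A gene was called at a limma adjusted p below 0.05, over all 11750 genes tested, and an absolute log2 fold change above 1. The expression filter of at least 3 CPM in at least 3 libraries kept 9 of the 10, all but Sp5. Lef1 passed it through EpiLC libraries alone, with at most 1.98 CPM in an ESC library, so it could hardly be tested without rising. In total RNA 3 of the 9 rose (Lef1, Fzd7 and Tcf7), against 14.6% of all genes tested, and 0 fell, against 9.70%. The same 3 genes rose in RPF, where 15.4% of all genes tested rose, and 0 fell, against 10.6%. For TE, 0 of the 9 were called in either direction, against 0.136% higher and 0.119% lower among all genes. At an unadjusted p under 0.05, TE differed for Gsk3b (0.0012) and Axin1 (0.014), and edgeR and DESeq2 called 0 of the 9 as well. The median log2 change of the 9 was 0.18 for mRNA, 0.13 for RPF and 0.00 for TE, and over all genes tested it was 0.03, 0.01 and 0.01.

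**Figure D1:**
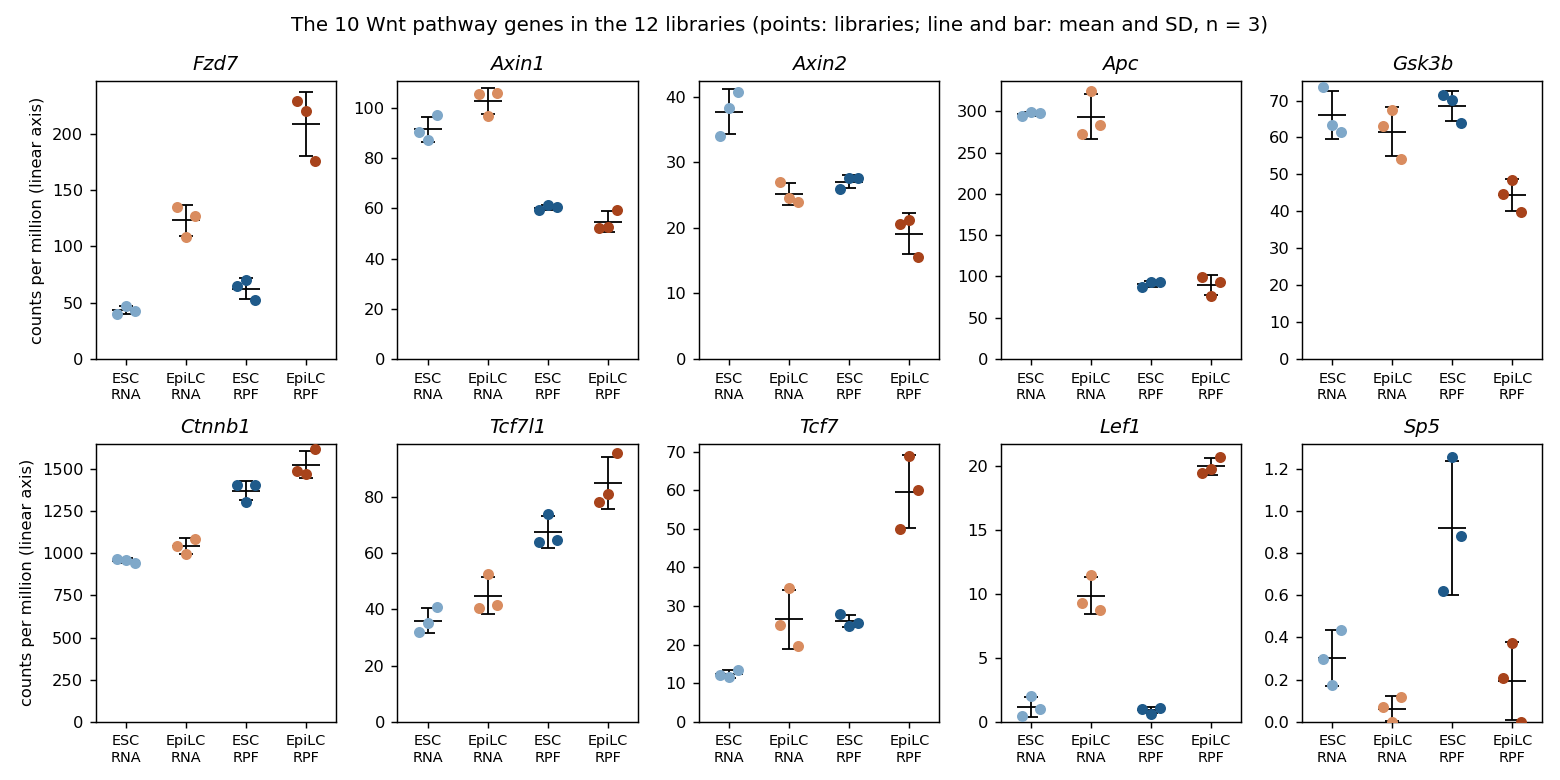
CPM (linear axis from 0, a scale for each gene) of the 10 genes in the 12 libraries, with points for libraries and a line and bar for the mean and SD of 3 libraries. The EpiLC points of Fzd7, Tcf7, Lef1 and, narrowly, Ctnnb1 sit above all ESC points of the same assay. Those of Axin2 and Sp5 sit below, Sp5 on few counts. How many of all genes separate in this way was not counted.

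TCF/LEF factors bind a short core motif. Upstream sequence is therefore shown for Fzd7, which rose, and for the classical targets Sp5 and Axin2, whose levels in EpiLCs lay below those in ESCs. The 250 bases before the start site are from RefSeq (GRCm38.p6), read 5′ to 3′ on the gene's strand, and capitals mark matches to CTTTGAA or CTTTGAT, or to CTTTGTA or CTTTGTT, on either strand.
Fzd7 (chr1:59481897-59482146, plus strand): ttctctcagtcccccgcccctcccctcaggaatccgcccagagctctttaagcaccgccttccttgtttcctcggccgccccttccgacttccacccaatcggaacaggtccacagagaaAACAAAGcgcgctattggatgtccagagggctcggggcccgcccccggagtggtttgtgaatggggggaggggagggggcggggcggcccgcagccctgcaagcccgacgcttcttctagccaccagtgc
Sp5 (chr2:70474673-70474922, plus strand): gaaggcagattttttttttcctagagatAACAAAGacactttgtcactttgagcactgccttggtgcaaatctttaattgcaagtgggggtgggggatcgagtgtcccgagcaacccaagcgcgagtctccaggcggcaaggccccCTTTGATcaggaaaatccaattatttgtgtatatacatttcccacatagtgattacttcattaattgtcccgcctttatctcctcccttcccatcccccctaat
Axin2 (chr11:108920099-108920348, plus strand): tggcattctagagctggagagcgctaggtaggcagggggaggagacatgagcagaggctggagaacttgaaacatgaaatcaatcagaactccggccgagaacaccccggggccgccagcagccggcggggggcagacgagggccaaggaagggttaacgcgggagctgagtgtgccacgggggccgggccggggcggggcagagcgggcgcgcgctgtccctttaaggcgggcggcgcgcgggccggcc
Fzd7 holds 1 match, Sp5 holds 2, and Axin2 none in this window. Of the 10 members, 8 have a listed start site, with 13 sites in all, and 3 of these sites hold a match: those of Fzd7 and Sp5 and 1 of the 4 of Lef1. Over all 32851 listed start sites 14.8% hold a match, so a match in a window of this length is common. A match is a description of the letters, not of a bound site.

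Fzd7 (ENSMUSG00000041075.8, chromosome 1, coding bases 59483005 to 59484678, mm10, a single coding exon) encodes the Frizzled receptor most often linked to pluripotent cells. In total RNA its ESC libraries held 39.8, 46.9 and 43.0 CPM and its EpiLC libraries 135, 108 and 127 CPM. In RPF they held 64.5, 70.5 and 52.4 CPM and 229, 220 and 176 CPM. Every EpiLC library was thus above every ESC library in both assays. How many of all genes separate in this way was not counted, so here and below it only describes the values. The log2 fold change was 1.53 ± 0.11 (SE) in total RNA, with a limma adjusted p of 4.80e-12, and 1.73 ± 0.11 in RPF, with 1.81e-12, or 2.90-fold and 3.33-fold. TE differed by 0.20 ± 0.16 (adjusted p 0.62), with a 95% interval from -0.11 to 0.50 on the log2 scale. Without the 3 libraries the changes were 1.44 for mRNA, 1.65 for RPF and 0.21 for TE. Over 24 alternatives the mRNA change of Fzd7 stayed between 1.33 and 1.61.

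The rise of Fzd7 came with a turnover of the Frizzled family. Levels per length (CPM per kilobase of counted sequence) summed over Fzd1 to Fzd10 were 144 ± 1.35 in ESC and 220 ± 22.5 in EpiLC total RNA (SD, n = 3). Fzd5 made up 35.7% ± 1.22 of that sum in ESCs and 7.81% ± 0.403 in EpiLCs, and Fzd10 20.3% ± 1.99 and 3.51% ± 0.255. Fzd7 went from 17.95% ± 1.30 to 33.4% ± 0.883 and Fzd2 from 7.24% ± 1.25 to 27.5% ± 1.73. Fzd5 and Fzd10 therefore held the larger share of Frizzled mRNA in ESCs, and Fzd7 and Fzd2 in EpiLCs. In footprints Fzd7 alone reached 46.7% ± 0.332 of the EpiLC sum, from 24.4% ± 3.78 in ESCs. These shares are descriptions without a test, and the genes' own tests follow with the wider pathway.

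Axin1 and Axin2 encode the scaffolds that assemble the destruction complex, of which Axin2 is the one that beta-catenin induces. Axin2 (ENSMUSG00000000142.15, chromosome 11, 108923333 to 108949395) had 34.1, 38.3 and 40.8 CPM in ESC total RNA and 27.0, 24.6 and 23.9 CPM in EpiLC total RNA. Its footprints were 25.9, 27.6 and 27.6 CPM in ESCs and 20.7, 21.3 and 15.5 CPM in EpiLCs. All EpiLC libraries were below all ESC libraries. The log2 difference was -0.56 ± 0.11 in total RNA, with a limma adjusted p of 7.13e-05, and -0.57 ± 0.16 in RPF, with 0.0034, past the p threshold in both and short of the fold limit. Without the 3 libraries that stand apart in state markers the differences were -0.69 (adjusted p 0.00032) and -0.67 (adjusted p 0.0064). Axin2 TE differed by -0.02 ± 0.19, with a 95% interval from -0.40 to 0.36.

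Axin1 (ENSMUSG00000024182.16, chromosome 17, 26142729 to 26195061) is the constitutive scaffold. Its total RNA was 90.2, 87.3 and 97.0 CPM in ESCs and 105, 96.6 and 106 CPM in EpiLCs, while its footprints were 59.2, 61.1 and 60.4 CPM and 52.0, 52.6 and 59.5 CPM. The groups overlapped in both assays. Axin1 had a log2 difference of 0.18 ± 0.07 for mRNA (limma adjusted p 0.031), -0.16 ± 0.10 for RPF (adjusted p 0.20) and -0.33 ± 0.12 for TE (adjusted p 0.21). These were, without the 3 libraries, 0.0445 (adjusted p 0.71), -0.11 (adjusted p 0.49) and -0.15 (adjusted p 0.72). Per length, Axin2 made up 29.9% ± 1.62 of the Axin mRNA in ESCs and 20.2% ± 1.12 in EpiLCs (SD, n = 3), and 31.7% ± 0.487 and 26.6% ± 4.65 of the Axin footprints.

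Gsk3b (ENSMUSG00000022812.13, chromosome 16, 38090571 to 38240569) encodes one of the pair of GSK3 kinases, the target of CHIR99021. Its mRNA was 73.6, 63.3 and 61.4 CPM in ESCs and 63.2, 67.4 and 54.2 CPM in EpiLCs, with overlapping groups. Footprints of Gsk3b were 71.6, 70.1 and 64.0 CPM in ESCs and 44.8, 48.5 and 39.9 CPM in EpiLCs, without overlap. The log2 difference was -0.11 ± 0.09 for mRNA (limma adjusted p 0.30), -0.67 ± 0.12 for RPF (adjusted p 4.74e-05) and -0.56 ± 0.15 for TE (adjusted p 0.071, 95% interval from -0.86 to -0.26). Gsk3b had the smallest TE p of the 9 genes. Its TE difference was between -0.65 and -0.44 over 25 alternatives, with adjusted p from 0.030 to 0.33, and never reached the fold limit. The highest of both came without the 3 libraries (-0.44, adjusted p 0.33), where the mRNA difference was -0.25 (adjusted p 0.089) and the RPF difference -0.69 (adjusted p 0.00053). The sister kinase Gsk3a had 0.05 ± 0.09 for mRNA, 0.14 ± 0.11 for RPF and 0.08 ± 0.15 for TE (adjusted p 0.86). Per length, Gsk3b was 50.3% ± 2.56 of the GSK3 footprints in ESCs and 36.8% ± 2.05 in EpiLCs, against 48.3% ± 4.69 and 46.3% ± 5.88 of the GSK3 mRNA (SD, n = 3).

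Apc (ENSMUSG00000005871.14, chromosome 18, 34261068 to 34318581) encodes the large scaffold that presents beta-catenin within the complex. Its ESC libraries held 294, 299 and 298 CPM and its EpiLC libraries 273, 324 and 284 CPM of total RNA. Footprints of Apc were 87.3, 92.7 and 93.1 CPM in ESCs and 99.5, 75.7 and 92.7 CPM in EpiLCs. No difference was seen beyond the spread of the libraries: -0.03 ± 0.06 for mRNA (limma adjusted p 0.67, 95% interval from -0.16 to 0.09), -0.03 ± 0.10 for RPF (adjusted p 0.81) and 0.00 ± 0.12 for TE (adjusted p 0.998). The differences without the 3 libraries were -0.0461, -0.11 and -0.0612.

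Ctnnb1 (ENSMUSG00000006932.17, chromosome 9, 120950554 to 120959517) encodes beta-catenin, which is regulated mainly through protein removal. Its mRNA was 967, 961 and 943 CPM in ESCs and 1043, 993 and 1087 CPM in EpiLCs. Footprints were 1404, 1306 and 1404 CPM in ESCs and 1490, 1473 and 1617 CPM in EpiLCs. The EpiLC libraries were above the ESC libraries in both assays by a narrow margin. The log2 difference was 0.12 ± 0.05 for mRNA (limma adjusted p 0.027), 0.13 ± 0.05 for RPF (adjusted p 0.035) and 0.00 ± 0.07 for TE, with a 95% interval of the TE difference from -0.14 to 0.14. Without the 3 libraries that stand apart the mRNA difference was 0.05 (adjusted p 0.55), the RPF difference 0.15 (adjusted p 0.0495) and the TE difference 0.10 (adjusted p 0.68).

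**Figure D2:**
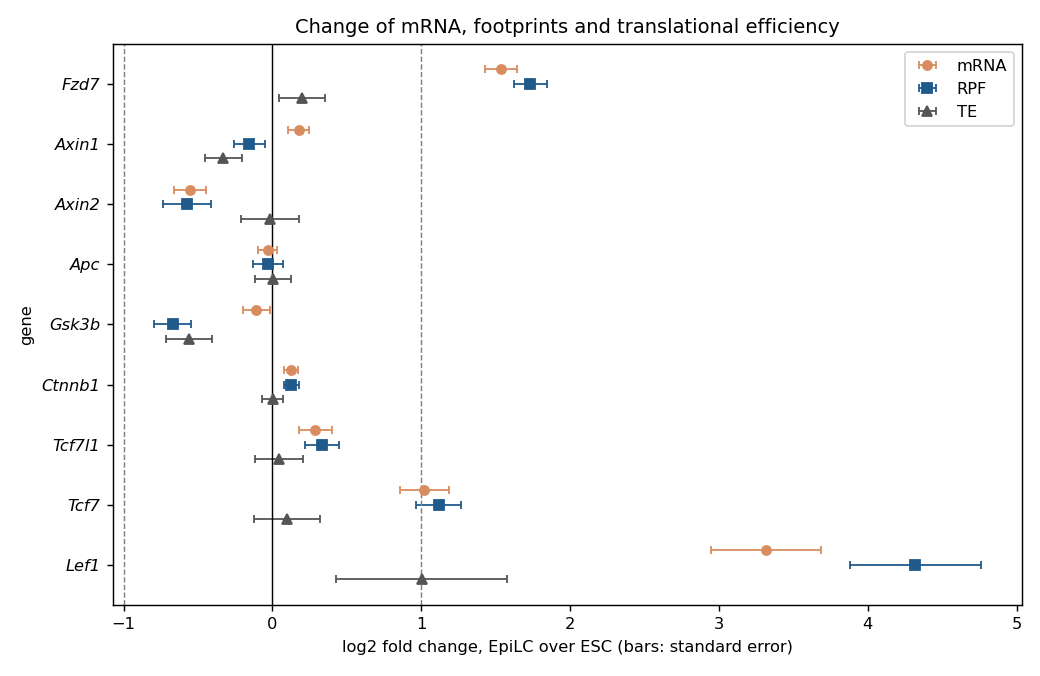
Log2 fold change (EpiLC over ESC, bars for the standard error) of mRNA, RPF and TE for the 9 genes tested, with dashed lines at the fold limit of 1. Lef1, Fzd7 and Tcf7 lie at 1.02 or above for mRNA and RPF, and Gsk3b lies at -0.11 for mRNA and -0.67 for RPF.

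Lef1 (ENSMUSG00000027985.14, chromosome 3, 131111517 to 131223155), usually an activating partner of beta-catenin, changed most among the 10. Its ESC libraries held 6, 23 and 11 counts in total RNA (0.445, 1.98 and 0.957 CPM) and its EpiLC libraries 136, 71 and 75 counts (9.28, 11.5 and 8.75 CPM). In RPF they held 8, 3 and 12 counts (0.993, 0.628 and 1.06 CPM) and 94, 53 and 112 counts (19.4, 19.8 and 20.7 CPM). ESC total RNA replicate 2, the ESC library with the most formative RNA, also held the most Lef1. The log2 fold change was 3.32 ± 0.37 in total RNA, with a limma adjusted p of 2.25e-08, and 4.32 ± 0.44 in RPF, with 6.43e-09. Without the 3 libraries that stand apart it was 3.79 and 4.35. Lef1 TE differed by 1.00 ± 0.57 (adjusted p 0.46), with a 95% interval from -0.12 to 2.13, and without those libraries by 0.56 (adjusted p 0.76).

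Tcf7 (ENSMUSG00000000782.15, chromosome 11, 52253883 to 52282172) encodes TCF1, another activating partner. It had 12.2, 11.6 and 13.5 CPM in ESC total RNA and 25.2, 34.7 and 19.6 CPM in EpiLC total RNA. Its footprints were 27.8, 24.9 and 25.5 CPM in ESCs and 50.0, 69.0 and 60.04 CPM in EpiLCs. Groups did not overlap, though the EpiLC total RNA libraries spread widely. The log2 fold change was 1.02 ± 0.16 in total RNA, with a limma adjusted p of 6.95e-06, and 1.12 ± 0.15 in RPF, with 8.04e-07, with a TE difference of 0.10 ± 0.22, or 0.35 without the 3 libraries. For mRNA the change lay at the fold limit: in 12 of 24 alternatives it was under 1 (0.88 to 1.00), among them the fits without ESC total RNA replicate 2 (0.97), without EpiLC total RNA replicate 2 (0.88) and without the 3 libraries (0.90), with adjusted p of at most 0.00065. The RPF call held in all 24 alternatives.

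Tcf7l1 (ENSMUSG00000055799.13, chromosome 6, 72627360 to 72788907) encodes TCF3, the repressor of naive genes. Its mRNA was 31.98, 35.2 and 40.8 CPM in ESCs and 40.6, 52.5 and 41.5 CPM in EpiLCs, with 1 overlapping pair of libraries. Its footprints were 63.9, 73.9 and 64.6 CPM in ESCs and 78.3, 80.9 and 95.7 CPM in EpiLCs. The log2 difference was 0.29 ± 0.11 in total RNA, with a limma adjusted p of 0.028, and 0.33 ± 0.11 in RPF, with 0.014, past the p threshold and short of the fold limit. Without the 3 libraries the mRNA difference was 0.29 (adjusted p 0.091) and the RPF difference 0.41 (adjusted p 0.0099). The TE difference was 0.0445 (adjusted p 0.94) with all libraries and 0.12 (adjusted p 0.83) without the 3.

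Together with Tcf7l2, the remaining family member, the TCF/LEF genes summed per length to 37.8 ± 3.56 in ESC and 67.0 ± 13.95 in EpiLC total RNA, and to 77.5 ± 1.498 and 149 ± 14.1 in RPF (SD, n = 3). Tcf7l1 held 54.1% ± 1.87 of the mRNA sum in ESCs and 38.5% ± 3.63 in EpiLCs. Tcf7 held 37.9% ± 1.86 and 45.1% ± 3.96. Lef1 held 2.43% ± 1.75 and 12.04% ± 0.770. The repressor was thus the largest component in ESCs, and Tcf7 the largest on average in EpiLCs, where in replicate 3 Tcf7l1 was ahead (42.7% against 40.8%). Tcf7l2 held 5.51% ± 1.33 and 4.30% ± 1.02 of the mRNA and 10.6% ± 0.997 and 10.2% ± 1.53 of the footprints.

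**Figure D3:**
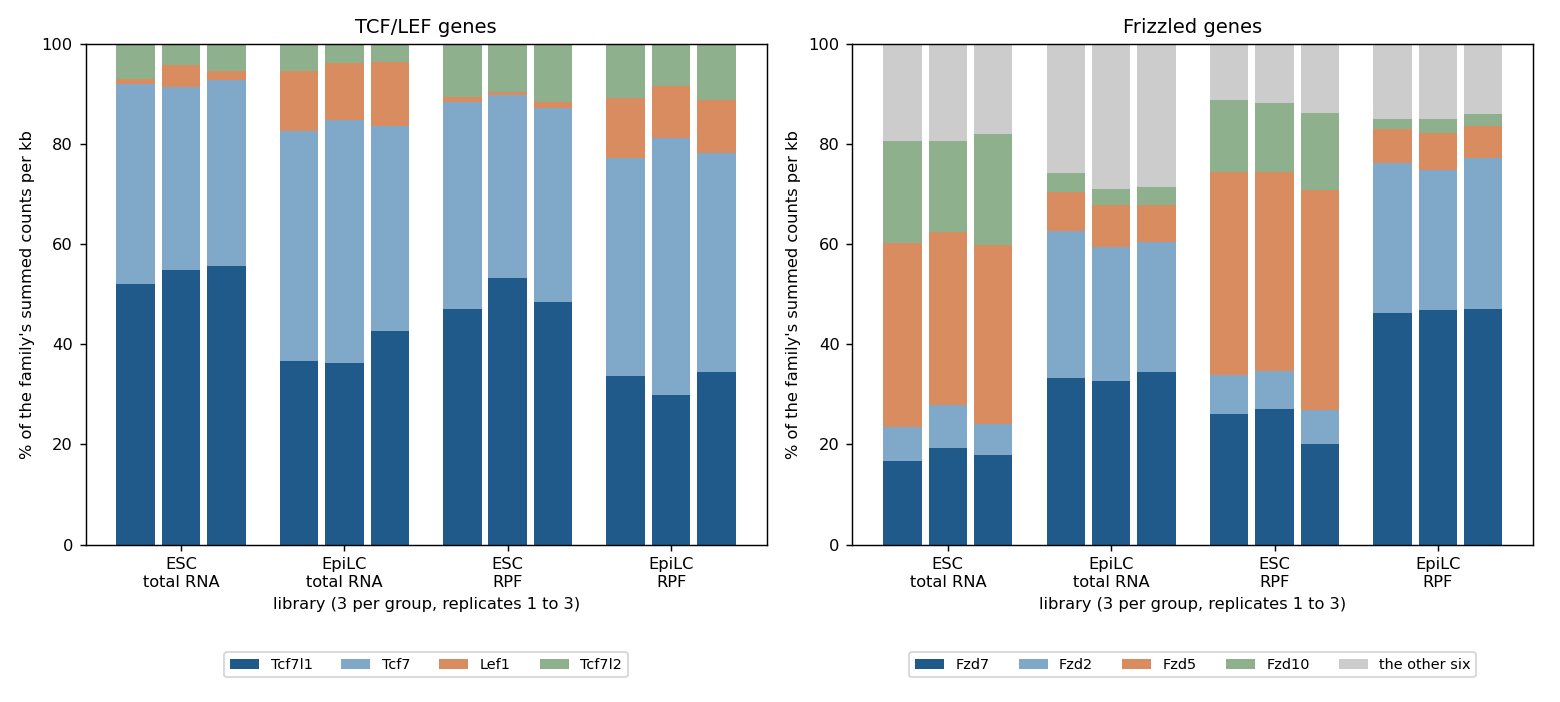
Share (%) of each gene in the summed counts per kilobase of the TCF/LEF genes (left) and of the Frizzled genes (right), a bar per library, 3 per group. Lef1 goes from 2.43% to 12.04% of TCF/LEF mRNA on average, and Fzd5 from 35.7% to 7.81% of Frizzled mRNA.

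The 5 naive genes Esrrb, Nanog, Klf2, Tfcp2l1 and Nr5a2, known to be repressed by Tcf7l1, all fell in total RNA and in RPF. Their summed level was 1415 to 1597 CPM in ESC and 179 to 221 CPM in EpiLC total RNA. Klf2 fell by 5.18 ± 0.42, Tfcp2l1 fell by 5.12 ± 0.24 and Esrrb fell by 4.998 ± 0.21 on the log2 scale for mRNA. These genes also mark the naive state, so their fall is not independent of the state markers above. Of all genes tested, 9.70% fell in total RNA and 10.6% in RPF. Among EpiLC libraries Nr5a2 reached 3 CPM only in RPF replicate 1 (4.75 CPM), so it passed the filter through ESCs alone.

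Sp5 (ENSMUSG00000075304.2, chromosome 2, 70475311 to 70477169) encodes a zinc finger factor induced by beta-catenin, and its upstream window above holds 2 matches to the TCF/LEF core. It had 4, 2 and 5 counts in ESC total RNA and 1, 0 and 1 in EpiLC total RNA. In RPF it had 5, 6 and 10 counts in ESCs and 1, 1 and 0 in EpiLCs. Most of these values lie near the floor of 3 counts. Scaled by library totals, the summed counts gave an ESC to EpiLC ratio of 4.42 for total RNA (95% exact interval 0.965 to 41.1) and 5.62 for RPF (1.37 to 49.4), intervals that cover counting error only. With no expression filter Sp5 was called lower for RPF and not for mRNA.

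Of 17 genes often used as readouts, 10 were tested, and in total RNA 5 rose, 2 fell and 3 (Axin2, Ccnd1 and Znrf3) were not called. Of all genes tested 14.6% were called higher and 9.70% lower. With the 3 libraries left out, 4 of these targets were higher and 2 lower. The list holds Axin2, Sp5, Lef1 and Tcf7 as well. Lef1 and Sp8 reached 3 CPM in no ESC library, and Nkd1 in only 1 (3.265 CPM). Cdx1 reached it in no EpiLC library, and Notum in only 1 (3.10 CPM). Each of these genes thus passed the filter through 1 cell type alone. Lef1, Sp8 and Nkd1 could hardly be tested without rising, and Cdx1 and Notum hardly without falling. Myc, which drives growth, rose by 3.63 ± 0.38 on the log2 scale, Sp8, a relative of Sp5, by 2.18 ± 0.41 and the feedback inhibitor Nkd1 by 2.04 ± 0.23. Notum, an enzyme that inactivates Wnt ligands, fell by 3.65 ± 0.36, from 24.6 ± 5.08 to 1.91 ± 0.376 CPM (SD, n = 3). Cdx1, a caudal homeobox factor, had 42, 32 and 25 counts in ESC and 2, 0 and 0 counts in EpiLC total RNA, an ESC to EpiLC ratio of 39.8 (95% exact interval 10.7 to 333). Cdx1 dropped below the expression filter without ESC RPF replicate 1, ESC RPF replicate 2 or ESC total RNA replicate 1, which left 1 gene that fell. Ccnd1, the cell cycle regulator cyclin D1, had 0.51 ± 0.09 for mRNA and 0.95 ± 0.08 for RPF.

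Per length, the order of the 10 genes was led by Ctnnb1 in every group, at 416 ± 5.42 in ESC and 452 ± 20.4 in EpiLC total RNA (CPM per kilobase, SD, n = 3). In ESC total RNA there followed Gsk3b (52.6), Axin1 (35.7), Apc (34.4), Fzd7 (25.8), Tcf7l1 (20.5), Axin2 (15.2), Tcf7 (14.3), Lef1 (0.917) and Sp5 (0.262). Among neighbours in that order, Axin1 and Apc, Axin2 and Tcf7, and Lef1 and Sp5 overlapped in their libraries. In EpiLC total RNA Fzd7 (73.6) stood second, ahead of Gsk3b (49.0), and Lef1 (8.001) came within reach of Axin2 (10.2) without overlapping it. Apc overlapped Tcf7 there, and Tcf7 overlapped Tcf7l1. In EpiLC footprints the order after Ctnnb1 was Fzd7 (124), Tcf7 (68.8), Tcf7l1 (48.4), Gsk3b (35.3), Axin1 (21.4), Lef1 (16.2), Apc (10.4), Axin2 (7.72) and Sp5 (0.168), with no overlap between neighbours.

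The ratio of footprints to mRNA spanned a wide range among the genes. The log2 ratio of RPF CPM to total RNA CPM was taken over the same-numbered libraries, of which the labels do not say whether they share a culture. In ESCs Tcf7 had 1.07 ± 0.139 (SD, n = 3), above 94.2% of all genes tested, and Tcf7l1 0.911 ± 0.218, above 91.4%. Apc was at the other end with -1.71 ± 0.0420, above 4.98% of genes. Apc also has the longest counted sequence of the 10, 8634 nt against 867 nt for Tcf7, and the part of length was not tested. In EpiLCs Tcf7 had 1.20 ± 0.360 and Apc -1.72 ± 0.335, at the 94.1 and 5.11 percentile. Ctnnb1 kept to 0.518 ± 0.0687 and 0.552 ± 0.0323. The scaffold genes Axin1 (-0.601 ± 0.0861 and -0.906 ± 0.0978) and Axin2 (-0.473 ± 0.0855 and -0.401 ± 0.210) were below the median of all genes, which was -0.0879 in ESCs and -0.0522 in EpiLCs. Tcf7l2, though outside the 10, stood higher still, at 2.00 ± 0.260 and 2.41 ± 0.631, the 99.4 and 99.6 percentile. The median of the 9 genes was 0.0567 in ESCs and 0.552 in EpiLCs, where the gene in the middle is Gsk3b in the first and Ctnnb1 in the second. Without ESC total RNA replicate 2 the ESC median was 0.448.

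**Figure D4:**
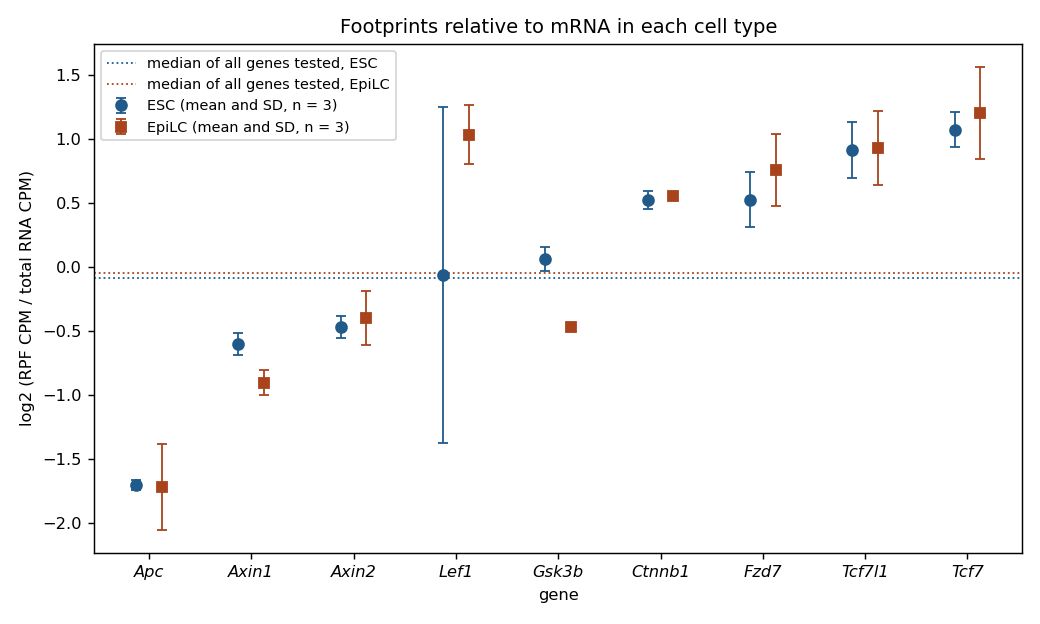
Log2 of RPF CPM over total RNA CPM (mean and SD, n = 3) for the 9 genes tested in ESCs (circles) and EpiLCs (squares), with dotted lines for the medians of all genes tested. Apc lies near -1.7 in both cell types and Tcf7 above 1, and Lef1 has the widest spread, in ESCs.

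A wider list of 91 Wnt pathway genes, which includes 9 of the 10 (all but Sp5), placed these changes among their neighbours. Of the 91, 61 were tested. In total RNA 18 rose and 6 fell, in RPF 18 rose and 7 fell, and for TE 0 were called. For total RNA that is 29.5% higher and 9.84% lower, beside 14.6% and 9.70% of all genes tested. For RPF it is 29.5% and 11.5%, beside 15.4% and 10.6%. With the 3 libraries that stand apart left out, 15 were higher and 6 lower. Leaving out the members, 52 were tested, of which 15 rose and 6 fell in total RNA, with a median log2 change of 0.20 against 0.03 for all genes. Wnt3, Wnt4, Wnt9a, Fzd1, Rspo1, Apc2 and Lef1, all among the genes that rose, reached 3 CPM in no ESC library. Nkd1 and Nkd2, which also rose, reached it only in ESC total RNA replicates 1 (3.265 CPM) and 2 (3.01 CPM). All of these passed the filter through EpiLCs alone and could hardly be tested without rising. Notum, which fell, passed through ESCs alone. The same filter was used for all genes, but how many of them passed through EpiLCs or ESCs alone was not counted. The higher share of this list is therefore only a description. The list was compiled with earlier results of these data known.

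Ligands and their handling came first in that list. Of 19 Wnt genes 5 were tested and 3 rose: Wnt4 by 4.36 ± 0.58, Wnt3 by 3.47 ± 0.42 and Wnt9a by 2.16 ± 0.42 on the log2 scale for mRNA. That is 60% higher and 0% lower, beside 14.6% and 9.70% of all genes tested. None of the 3 reached 3 CPM in an ESC library, so they passed the filter through EpiLCs alone and could hardly be tested without rising. Wnt3, which patterns the early epiblast, had 5, 7 and 5 counts in ESC and 79, 36 and 46 counts in EpiLC total RNA. Wnt4 had 1, 9 and 7 counts in ESC total RNA, so its fold rests on few reads there. Wls, which escorts Wnt proteins out of the cell, rose by 1.51 ± 0.11, while Porcn, which attaches their lipid, fell by 1.54 ± 0.25. Wnt3a, chosen after its values were seen, stayed under the filter with 41, 23 and 30 counts in ESC and 5, 2 and 3 in EpiLC total RNA, an ESC to EpiLC ratio of 7.56 (95% exact interval 3.93 to 16.3). It was the only ligand under the filter whose total RNA interval lay above 1. The intervals of Wnt2, Wnt6, Wnt7b, Wnt8a, Wnt9b, Wnt10b and Wnt16 lay below 1, toward EpiLCs, and such intervals cover counting error only.

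Among the 12 receptors, all tested, 6 rose and 2 fell in total RNA, beside 14.6% and 9.70% of all genes tested. Fzd2 rose by 2.58 ± 0.13, Fzd3 by 1.73 ± 0.13 and Fzd1 by 1.54 ± 0.33, while Fzd10 fell by 1.85 ± 0.13 and Fzd5 fell by 1.56 ± 0.10. The RPF change of Fzd1 was 0.85 ± 0.50 (limma adjusted p 0.15) and not called, and the mRNA call of Fzd1 was lost without the 3 libraries that stand apart. In the R-spondin arm, which controls the turnover of receptors, 3 of 9 genes were tested. Lgr4 (1.76 ± 0.07) and Rspo1 (1.72 ± 0.32) rose, or 66.7% of those tested, and 0% fell. Znrf3 (0.17 ± 0.11) was not called. Fzd1 and Rspo1 reached 3 CPM in no ESC library, so they passed the filter through EpiLCs alone.

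The list of 15 secreted antagonists also holds the membrane proteins Kremen1, Kremen2 and Apcdd1. Of these 15 genes 7 were tested, and in total RNA 1 rose and 2 fell. That is 14.3% higher and 28.6% lower, beside 14.6% and 9.70% of all genes tested. Sfrp2, which binds Wnt outside the cell, rose by 3.499 ± 0.22, from 3.96 ± 1.85 to 40.7 ± 3.46 CPM (SD, n = 3). Its relative Sfrp1 fell by 1.88 ± 0.0848, from 366 ± 23.9 to 98.4 ± 13.5 CPM. Kremen1, a Dickkopf receptor, rose in RPF by 1.26 ± 0.22 and had 0.51 ± 0.15 for mRNA, which was not called, and its TE difference of 0.75 ± 0.27 had an adjusted p of 0.18. Sfrp4 fell by 1.16 ± 0.45 in RPF, with an mRNA difference of -0.21 ± 0.23. The Sfrp4 call was lost without ESC RPF replicate 1 or EpiLC RPF replicate 3.

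Of the 14 destruction complex genes, all tested, 1 rose and 0 fell in total RNA and in RPF, or 7.14% and 0%. Among all genes tested 14.6% rose and 9.70% fell in total RNA, and 15.4% rose and 10.6% fell in RPF. In total RNA 9 of the 14 passed the p threshold, which 4068 higher and 3612 lower genes of all 11750 tested also did, a similar share. The called gene was Apc2, the low-level relative of Apc, with 1.98 ± 0.29 for mRNA and 1.66 ± 0.347 against 6.42 ± 0.924 CPM (SD, n = 3). Nkd2 (2.09 ± 0.22) and Nkd1 rose among the 5 Dishevelled and Naked genes, or 40%, and 0% fell. Nkd1 and Nkd2 each reached 3 CPM in only 1 ESC library (3.265 and 3.01 CPM). Like Apc2, both passed the filter through EpiLCs alone and could hardly be tested without rising. Of beta-catenin and its nuclear partners 13 of 15 were tested, and 15.4% rose and 7.69% fell in total RNA, near the shares of all genes. Lef1 and Tcf7 rose, while Tle5, a short member of the Groucho co-repressors, fell by 2.24 ± 0.09, from 161 ± 8.33 to 33.4 ± 3.94 CPM.

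**Figure D5:**
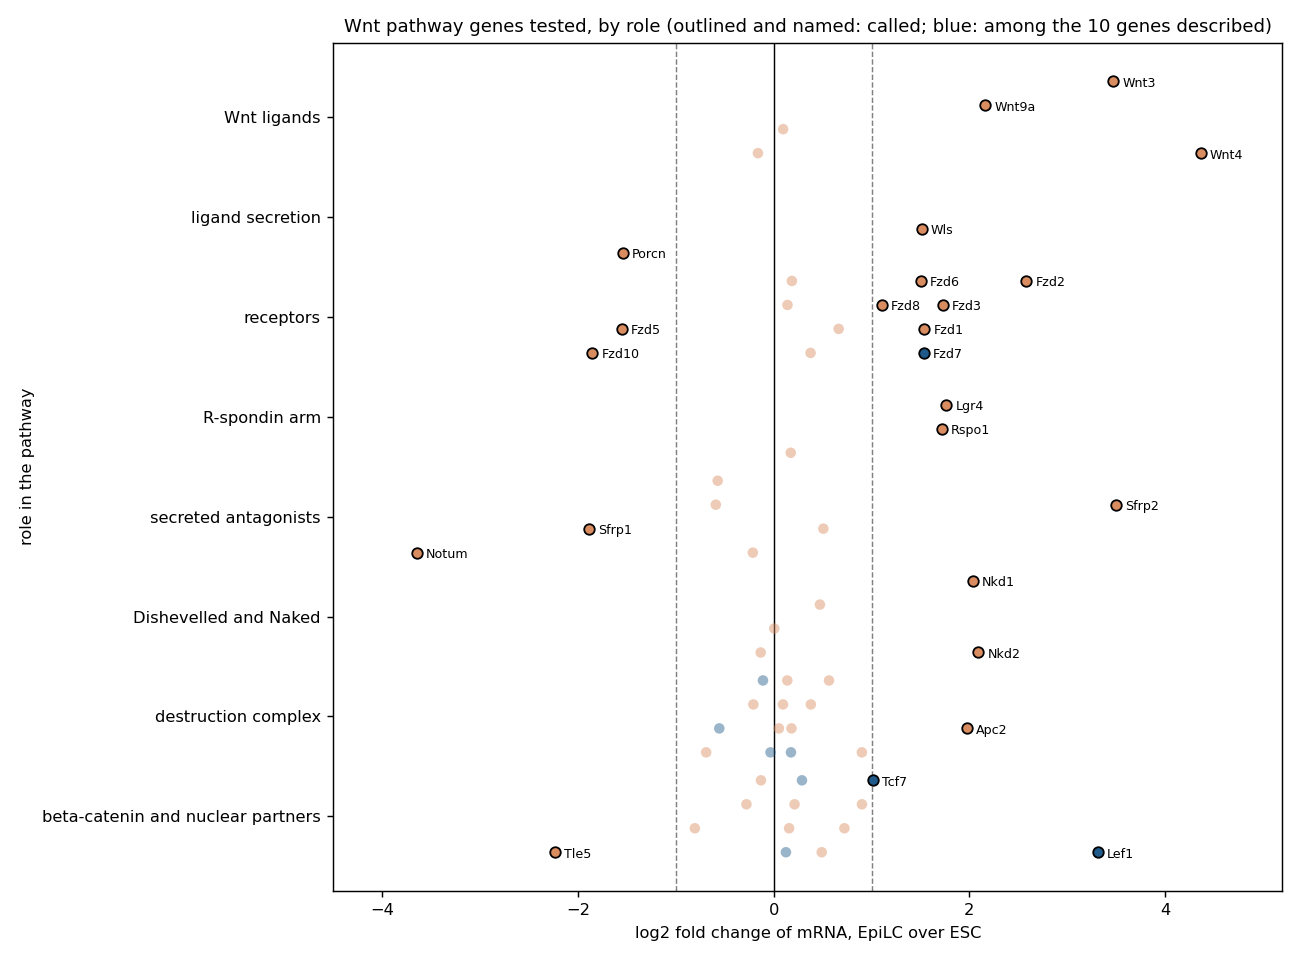
Log2 fold change of mRNA (EpiLC over ESC) of the 61 tested genes of the wider list, in a row for each role, with called genes outlined and named and dashed lines at the fold limit of 1. Of 5 ligands tested 3 rose, of 12 receptors 6 rose and 2 fell, and of 14 destruction complex genes 1 rose. Of all genes tested, 14.6% were called higher and 9.70% lower. Wnt3, Wnt4, Wnt9a, Fzd1, Rspo1, Apc2, Nkd1, Nkd2 and Lef1 passed the filter through EpiLCs alone.

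By Pearson's r of log2 CPM over the 12 libraries, Arhgef10l (0.98) and Adap1 (0.97) were among the tested genes most like Axin2. The 12 libraries fall into 4 groups and share depth and assay within a group, so these values are a description with no p.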

How the data were processed

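Mouse ESCs and EpiLCs were profiled by ribosome profiling with matched total RNA. The authors deposited raw counts per gene. Per the file headers and the study's methods, reads were trimmed with cutadapt version 1.14, single-position reads were kept with STAR version 2.5.3a on mm10 with Gencode M14, and featureCounts version 1.5.3 counted sense-strand 5′ ends over coding sequence without its first 45 nt. Duplicate removal is not stated. Groups and replicate numbers came from the sample titles.

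Here, symbols were matched by gene identifier (22385 of 22462). CPM used library totals. Genes with at least 3 CPM in at least 3 libraries (11750) were scaled with TMM (edgeR version 4.0.16) and fitted with limma-voom (limma version 3.58.1, R version 4.3.3), with the 4 groups as levels and no covariate. Contrasts were EpiLC over ESC for total RNA and RPF, and their interaction for TE, which shares all libraries with the other 2. P-values are 2-sided and adjusted by Benjamini-Hochberg over the genes tested. Levels per length used the counted length. TE within a cell type used a count offset of 0.5. Intervals of fitted changes are 1.96 SE wide on each side.

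The members and lists were chosen with earlier results of these data known. Named beyond the members are, per role of the wider pathway and target lists, at most 3 called genes higher and 3 lower by mRNA change, up to 3 examples of the Tcf7l1-repressed list, and the 3 genes most like Axin2, of which 1 is not reported here. Cdx1 is given by its count ratio. Alternatives were edgeR, DESeq2 version 1.42.0, limma-trend, RLE and total count scaling, 2 filters, no fold limit, a replicate block and leaving out each library. A GC correction and leaving out 3 libraries were chosen after seeing the data. No 2 libraries of a group agreed within sampling noise. The fits were tested on simulated data with known changes. Tle5 is listed as Aes in the annotation.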

Additional observations from a re-analysis of the deposited data

How the results depend on the processing

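Across 20 counts and medians, 364 of 384 values under an alternative stayed within 1.5 times the count, or within 1 SD of the median. Requiring at least 10 counts in every library tests fewer genes: members higher for mRNA became 1, wider pathway genes higher became 8 for mRNA and 10 for RPF, and target genes became 1 higher and 0 lower. Without an expression filter 1 member (Sp5) was lower for RPF and 28 wider pathway genes were higher for mRNA. Dropping the fold limit gave, for mRNA, 6 members higher with 1 lower and 31 wider pathway genes higher with 12 lower, and, for RPF, 5 members higher with 2 lower and 30 wider pathway genes higher with 14 lower. Of all 11750 genes tested, 4068 were then higher and 3612 lower for mRNA, and 3660 higher and 3369 lower for RPF. Leaving out 1 library gave 1 to 2 target genes lower, and a median TE of the members in ESCs of 0.00529 to 0.448. With TMM-scaled libraries the median level per length in ESC RPF was 27.6 against 26.8.

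The members' changes kept their sign and call in 596 of 654 values. Sign changes occurred for differences near 0. Axin2 TE turned to 0.0232 with edgeR, 0.0374 with DESeq2, 0.0429 with limma-trend, 0.0114 with total counts, 0.0107 with at least 10 counts, 0.0298 with the replicate block within a cell type and 0.0232 without the 3 libraries. Apc RPF turned to 0.0318 with the GC correction and 0.0329 with that correction and the replicate block. Apc TE turned to -0.0201 with edgeR, -0.00526 with DESeq2, -0.042 with limma-trend, -0.000767 with the replicate block and -0.0612 without the 3 libraries, and Tcf7l1 TE to -0.0113 with limma-trend. Leaving out 1 library gave TE of -0.0421 to 0.0355 for Ctnnb1, -0.11 to 0.16 for Axin2, -0.076 to 0.0811 for Apc, -0.0674 to 0.24 for Tcf7 and -0.0655 to 0.13 for Tcf7l1, and for Apc -0.0926 to 0.0378 for mRNA and -0.14 to 0.0167 for RPF. The cause was not tested.

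Deviations of same-numbered libraries had r from -0.12 to 0.12, short of r above 0.1 in every pair, so the main fit did not treat them as paired. TE within a cell type was taken over same-numbered libraries, so its SDs do rest on that pairing. The labels do not say whether same-numbered libraries share a culture, and EpiLC replicate 1 held the most naive RNA in both assays. With the replicate block 3 members were higher for mRNA and 3 for RPF, 0 were called for TE, and no member's call changed. Gsk3b TE then had an adjusted p of 0.030 at -0.56, against 0.030 to 0.33 over its 25 alternatives. Low counts limit Lef1 in ESCs, Sp5 and most Wnt ligands.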
